A study of Mus musculus with 2 samples.

Results

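The Notch receptors Notch1, Notch2 and Notch3, the ligand Jag1 and the target genes Hes1, Hey1 and Heyl were followed in stromal vascular cells of aged mouse gonadal white adipose tissue (gWAT). These 7 of 31054 genes were chosen by symbol for their place in 1 pathway, not by their levels. Each symbol matched 1 row of the count tables of both libraries. Notch signalling passes between touching cells. A ligand such as Jag1 on 1 cell binds a Notch receptor on its neighbour, an ADAM protease and then gamma-secretase cut the receptor, and its freed intracellular part joins RBPJ and Mastermind proteins in the nucleus and switches on Hes and Hey genes. In adipose tissue, Notch signalling is known for restraining adipocyte differentiation and browning, and Notch3 is best known from the mural cells of vessels.

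Both libraries came from male p16-CreERT2/R26-LSL-tdTomato mice aged 18 months. Tamoxifen activates the Cre recombinase, which is made from the p16 gene and removes a stop sequence in front of tdTomato, so that cells with high p16 at the time of treatment, and their descendants, carry the red reporter. CD31- CD45- cells were sorted from gWAT by fluorescence into a Tom+ (p16high) and a Tom- (p16low) suspension, and 1 droplet library (10x Genomics 3′ kit) was made of each. Genotype, age, tissue, tamoxifen and the CD31- CD45- gate were thus shared, and only the reporter gate differed. The number of mice behind each library is not given in the sources used here. With 1 library per condition there was no replicate, and a difference between the sorts cannot be told apart from a difference between the preparations. No test was possible and no p-value is given. Intervals are at 95%, by the exact Poisson method for levels, by Clopper-Pearson for shares and by the conditional form of it for ratios. They cover counting error only.

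Levels are unique molecular identifiers (UMIs) summed over the cells of a group per 1000000 of the group's UMIs (CPM). After quality control 3524 of 5566 Tom+ and 6717 of 11838 Tom- barcodes were kept. Cells with at least 10 UMIs over Msln, Upk3b, Krt19, Lrrn4 and Upk1b were called mesothelial and cells with under 5 stromal. This gave 3263 stromal and 250 mesothelial Tom+ cells (median 14235 and 18601.5 UMIs) and 4800 and 1887 Tom- cells (median 11270 and 14753 UMIs). Of 7 mesothelial markers that the class rule did not use, all 7 in Tom+ and 6 in Tom- were at least 1 higher on the log2 scale in mesothelial than in stromal cells. The exception was Wt1, at 263 CPM in the Tom- stromal cells against 513 CPM in the Tom- mesothelial cells. Pdgfra, a marker of adipose progenitors, was at 344 and 282 CPM in the Tom+ and Tom- stromal cells and at 41.9 and 51.4 CPM in mesothelial cells. Of the 7 progenitor markers listed, 5 in Tom+ and 4 in Tom- were at least 1 lower on the log2 scale in mesothelial cells. Cd34 went the other way, at 435 and 417 CPM in the Tom+ and Tom- mesothelial cells against 294 and 292 CPM in stromal cells. The tdTomato RNA itself was at 211 CPM in the Tom+ and 13.1 CPM in the Tom- stromal cells, and at 780 and 8.25 CPM in mesothelial cells. RNA of the p16 gene, Cdkn2a, did not follow the gate in stromal cells, with 4.66 CPM (4.08 to 5.29) in the Tom+ against 5.79 CPM (5.18 to 6.44) in the Tom- cells, while in mesothelial cells it was at 12.4 CPM (9.59 to 15.8) and 8.47 CPM (7.50 to 9.53). After thinning, 1.72% of the Tom+ and 1.94% of the Tom- stromal cells held a Cdkn2a UMI (3.40% and 3.56% unthinned). In the paper, by contrast, qPCR with p16Ink4a primers gave more p16 RNA in Tom+ than in Tom- APCs of mice aged 18 months. The counts here are of the Cdkn2a gene as a whole and come from few cells. The names p16high and p16low stand here for the reporter gate.

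Some cells went against their labels. Although the sort was CD45-, 195 Tom+ and 94 Tom- stromal cells were rich in immune transcripts (at least 100 Igkc, 10 Lyz2 or 2 Ptprc UMIs) and held 12.2% and 4.14% of the stromal UMIs. All 6 of 8 immune markers that could be compared were higher in Tom+ than in Tom- stromal cells, and the summed list made up 4.73% of the Tom+ and 1.16% of the Tom- stromal UMIs, nearly all of it the immunoglobulin transcript Igkc. In addition, 2224 barcodes were listed in both libraries, among them 506 kept Tom+ and 284 kept Tom- cells, of which 9 were kept in both. Barcodes kept in the Tom+ library only had a median of 27932 UMIs there and 663 in the Tom- library, and those kept in the Tom- library only had 33227 there and 657 in the Tom+ library. The ratios of the members' CPM that the text turns on are therefore given also without immune-rich cells and without shared barcodes.

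Of the 7 genes, the 5′ flanks of 4 were at hand as RefSeq start sites on GRCm38.p6, and these 4 are shown. Whether the flanks bear on the levels of the genes was not tested. Each run is the 250 bases before the RefSeq start, 5′ to 3′ on the strand of the gene. The gene spans given further on are those of GENCODE, which for Notch1 include a longer transcript, so that its window lies inside the span, and the windows of Notch2 and Jag1 overlap the ends of their spans. Capitals mark GC boxes, GGGCGG or its reverse complement, found on both strands.
Notch1 (chr2:26503823-26504072, minus strand): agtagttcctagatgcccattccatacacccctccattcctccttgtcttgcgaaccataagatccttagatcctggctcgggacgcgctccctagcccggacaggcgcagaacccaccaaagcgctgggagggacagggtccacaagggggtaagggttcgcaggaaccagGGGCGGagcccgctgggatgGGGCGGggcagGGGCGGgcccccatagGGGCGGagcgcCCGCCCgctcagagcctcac
Notch2 (chr3:98013288-98013537, plus strand): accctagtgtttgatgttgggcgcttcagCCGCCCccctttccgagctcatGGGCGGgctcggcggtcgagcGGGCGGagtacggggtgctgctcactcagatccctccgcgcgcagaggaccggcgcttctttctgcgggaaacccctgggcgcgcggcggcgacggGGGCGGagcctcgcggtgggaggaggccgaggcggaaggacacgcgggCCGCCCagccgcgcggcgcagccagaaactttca
Notch3 (chr17:32166891-32167140, minus strand): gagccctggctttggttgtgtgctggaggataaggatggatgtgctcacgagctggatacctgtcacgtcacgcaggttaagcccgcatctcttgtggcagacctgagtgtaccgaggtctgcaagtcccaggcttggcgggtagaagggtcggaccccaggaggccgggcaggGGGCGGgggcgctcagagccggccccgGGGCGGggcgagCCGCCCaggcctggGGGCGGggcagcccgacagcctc
Jag1 (chr2:137116521-137116770, minus strand): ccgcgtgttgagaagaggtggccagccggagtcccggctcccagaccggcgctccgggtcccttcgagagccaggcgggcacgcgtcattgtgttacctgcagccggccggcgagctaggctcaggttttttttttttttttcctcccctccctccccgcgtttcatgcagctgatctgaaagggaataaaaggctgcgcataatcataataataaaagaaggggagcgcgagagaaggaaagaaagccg

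The flanks of the receptor genes held 5 GC boxes in Notch1, 5 in Notch2 and 4 in Notch3, and that of Jag1 held 0. At least 1 GC box stood in 32.7% of the same windows of 32841 annotated starts. The core of the RBPJ binding sequence, TGGGAA on either strand, was in none of the 4 windows and in 21.6% of all windows. A match, or its lack in this window, is a description of the letters only. G and C made up 66.0% of the window in Notch1, 72.0% in Notch2, 68.8% in Notch3 and 57.2% in Jag1, against a median of 52.4% over all windows. No flank was at hand for Hes1, Hey1 and Heyl.

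Among the receptors, Notch2 was the one with the higher level in mesothelial cells, and its level differed little between the libraries. Notch2 (ENSMUSG00000027878, GRCm38 chromosome 3 from 98013527 to 98150361) measured 65.3 CPM (63.1 to 67.5, 3335 UMIs) in the Tom+ stromal cells and 64.7 CPM (62.6 to 66.8, 3742 UMIs) in the Tom- stromal cells. In mesothelial cells it measured 92.1 CPM (84.1 to 101, 490 UMIs) in the Tom+ and 91.5 CPM (88.2 to 94.8, 2959 UMIs) in the Tom- library. Both mesothelial levels thus lay above both stromal ones, with no overlap of the intervals, while within a class the libraries overlapped. The log2 ratio of mesothelial over stromal cells was 0.50 (0.36 to 0.63) in the Tom+ and 0.50 (0.43 to 0.57) in the Tom- library, under the log2 ratio of 1 that was required between classes. Without immune-rich cells it was 0.29 in Tom+ and 0.47 in Tom-, and without shared barcodes 0.41 and 0.52. The log2 ratio of Tom+ over Tom- was 0.01 (-0.05 to 0.08) in stromal and 0.01 (-0.13 to 0.15) in mesothelial cells. Without immune-rich cells these were 0.09 and -0.09, and without shared barcodes 0.11 and 0.00. With each cell thinned to 5000 UMIs, a Notch2 UMI was found in 27.0% of Tom+ and 26.5% of Tom- stromal cells and in 36.4% (30.4 to 42.7) of Tom+ and 38.3% (36.1 to 40.6) of Tom- mesothelial cells. Unthinned, these shares were 56.0%, 47.8%, 75.2% and 71.4%. No cell class in these libraries is known to lack the 7 genes, so no share could be set against a background class.

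Notch3 was a stromal transcript here, and it was higher in Tom+ than in Tom- stromal cells. Notch3 (ENSMUSG00000038146, chromosome 17 from 32120820 to 32166852) measured 22.9 CPM (21.6 to 24.2, 1168 UMIs) in the Tom+ and 13.2 CPM (12.3 to 14.2, 764 UMIs) in the Tom- stromal cells, or on the log2 scale 0.79 (0.66 to 0.93). It stood at percentile 98.4 of the 9778 genes whose mean reached 5 CPM in the comparison, and their median was 0.07. It was 0.66 without shared barcodes and 0.91 without immune-rich cells. In mesothelial cells only 10 Notch3 UMIs (1.88 CPM, 0.901 to 3.46) were counted in the Tom+ and 47 (1.45 CPM, 1.07 to 1.93) in the Tom- library. The mesothelial level was lower than the stromal level by 3.6 (2.72 to 4.67) on the log2 scale in Tom+ and by 3.18 (2.76 to 3.64) in Tom-. This ratio was -3.94 and -3.19 without immune-rich cells and -4.53 and -3.21 without shared barcodes. In thinned cells a Notch3 UMI was found in 8.49% (7.54 to 9.52) of Tom+ and 5.50% (4.85 to 6.20) of Tom- stromal cells, against 1.60% (0.438 to 4.05) and 0.377% (0.152 to 0.776) of mesothelial cells. Unthinned, the shares were 17.3% and 10.4% of stromal and 2.40% and 2.12% of mesothelial cells. At least 3 Notch3 UMIs were counted in 122 Tom+ and 58 Tom- stromal cells, and in 1 mesothelial cell of each library.

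Markers of mural cells, in which Notch3 is usually sought, were mixed in the same stromal cells. Rgs5 (1.29 CPM in Tom+ and 0.605 CPM in Tom-), Higd1b (0.294 and 0.449 CPM) and Kcnj8 (0.352 and 0.864 CPM) were near 0. The contractile and filament genes Des (60.4 and 84.0 CPM), Myh11 (41.4 and 23.9 CPM), Tagln (21.5 and 55.4 CPM) and Acta2 (15.9 and 35.0 CPM) were not. Ndufa4l2, at 6.24 CPM in the Tom+ and 10.1 CPM in the Tom- cells, was not near 0 either. The 11 mural markers summed to 159 CPM in Tom+ and 215 CPM in Tom- cells, with none at 0. Of the 5 that passed the filter, 4 were lower in Tom+ and 1, Myh11, was higher. Of those under the filter, Cox4i2 (4.5 against 1.18 CPM), Abcc9 (5.66 against 2.19 CPM), Cspg4 (1.82 against 1.61 CPM) and Rgs5 were higher in Tom+. Kcnj8 and Higd1b were lower. A single Tom+ stromal cell held 53 of the 66 Rgs5 UMIs. By share of cells Rgs5 was not higher, at 0.398% of Tom+ and 0.521% of Tom- stromal cells unthinned. The part of the mural markers in the Notch3 difference was not tested.

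Notch1 separated the classes but, over all stromal cells pooled, not the sorts. Notch1 (ENSMUSG00000026923, chromosome 2 from 26457903 to 26516663) measured 14.2 CPM (13.2 to 15.3, 728 UMIs) in the Tom+ and 13.8 CPM (12.9 to 14.8, 799 UMIs) in the Tom- stromal cells, or on the log2 scale 0.05 (-0.10 to 0.19). It was -0.22 without shared barcodes and -0.01 without immune-rich cells, and it took either sign among the alternatives. In mesothelial cells Notch1 measured 3.57 CPM (2.15 to 5.57, 19 UMIs) in the Tom+ and 1.51 CPM (1.12 to 2.0, 49 UMIs) in the Tom- library. These values rest on few molecules, and the log2 ratio of Tom+ over Tom- went from 1.24 (0.39 to 2.03) to 0.09 once the immune-rich cells were left out, which kept 236 of the 250 Tom+ mesothelial cells. Without shared barcodes the levels were 3.16 CPM (1.27 to 6.51, 7 UMIs) and 1.63 CPM (1.17 to 2.21, 41 UMIs). Over the alternatives this ratio ranged from 0.09 to 1.59. In the immune-rich Tom+ stromal cells themselves Notch1 was at 17.8 CPM (14.6 to 21.4), whereas Notch3 was at 8.17 CPM there. Mesothelial cells were below stromal cells in Notch1 by 2.0 (1.34 to 2.74) on the log2 scale in Tom+ and by 3.19 (2.77 to 3.64) in Tom-. Without immune-rich cells these ratios were -3.09 and -3.20, close to each other, and without shared barcodes -1.90 and -3.08. A Notch1 UMI was found in 5.15% of the Tom+ and 5.78% of the Tom- stromal cells after thinning (14.3% and 12.3% unthinned), and in 1.60% and 0.647% of mesothelial cells (5.2% and 2.17% unthinned).

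**Figure D1:**
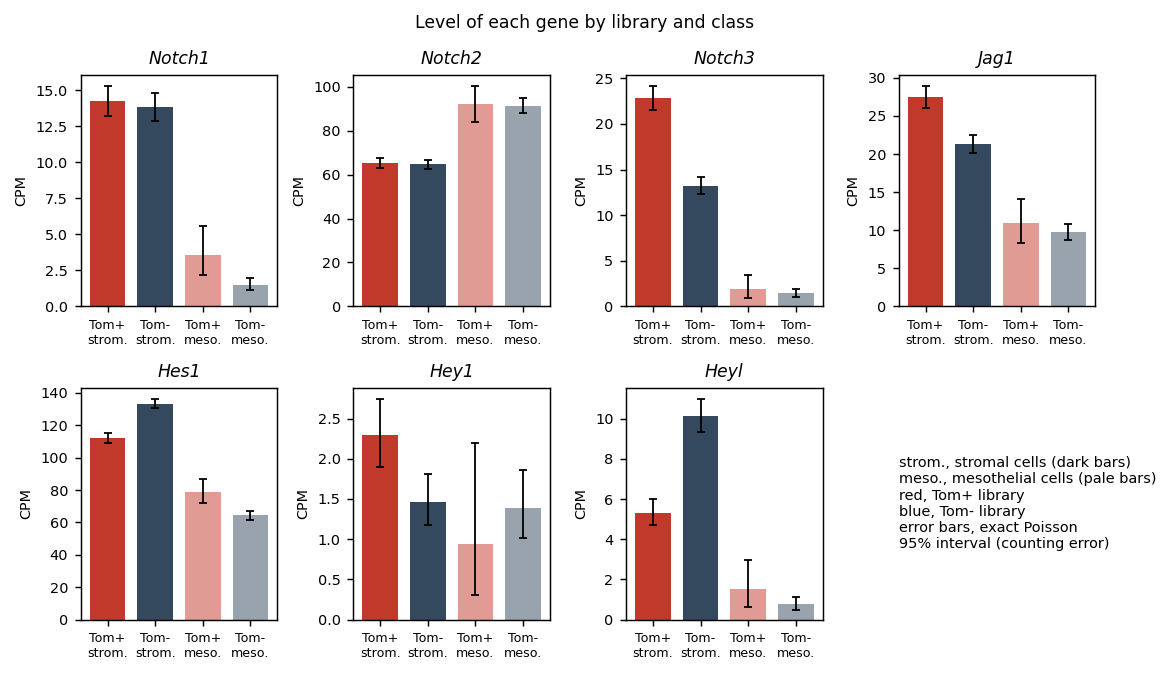
CPM of each gene (y axis, linear, from 0) in Tom+ and Tom- stromal and mesothelial cells, with exact Poisson 95% intervals for counting error. Notch2 is the gene with both mesothelial bars above both stromal bars, while Notch3 is at 22.9 and 13.2 CPM in stromal and under 2 CPM in mesothelial cells, and Heyl is at 5.32 CPM in the Tom+ and 10.1 CPM in the Tom- stromal cells.

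Jag1, the ligand, was detected in both classes and was higher in stromal cells and in the Tom+ sort. Jag1 (ENSMUSG00000027276, chromosome 2 from 137081456 to 137116644) measured 27.5 CPM (26.1 to 29.0, 1406 UMIs) in the Tom+ and 21.3 CPM (20.1 to 22.5, 1231 UMIs) in the Tom- stromal cells, or on the log2 scale 0.37 (0.26 to 0.48) at percentile 87.0. The ratio was 0.44 without shared barcodes and 0.48 without immune-rich cells, but median-of-ratios size factors gave 0.30, under the threshold of 0.35. In mesothelial cells Jag1 measured 10.9 CPM (8.27 to 14.1, 58 UMIs) in the Tom+ and 9.73 CPM (8.69 to 10.9, 315 UMIs) in the Tom- library, with overlapping intervals. Mesothelial cells were below stromal cells by 1.34 (0.96 to 1.74) on the log2 scale in Tom+ and by 1.13 (0.95 to 1.31) in Tom-, with ratios of -1.48 and -1.16 once immune-rich cells were left out and -1.61 and -1.18 once shared barcodes were. A Jag1 UMI was found in 12.2% (11.1 to 13.4) of the Tom+ and 9.0% (8.18 to 9.86) of the Tom- stromal cells after thinning, and in 6.40% and 4.96% of mesothelial cells. Unthinned, the shares were 28.2%, 18.6%, 19.2% and 13.2%.

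The other ligand genes were low. Jag2, Dll1, Dll3, Dll4, Dlk1 and Dlk2 lay under the level filter in all 4 comparisons. The highest of their levels were 3.15 CPM (102 UMIs) for Dll1 and 2.29 CPM (74 UMIs) for Dlk1, both in Tom- mesothelial cells. In Tom- stromal cells Dll1 and Dlk1 were at 0.47 and 0.55 CPM. In the Tom+ library they were at 2.82 and 1.88 CPM in mesothelial cells (15 and 10 UMIs) and at 0.57 and 0.47 CPM in stromal cells. Dll4, the ligand of sprouting endothelium, had 10 UMIs in Tom+ and 8 in Tom- stromal cells and 0 in mesothelial cells of either library, where 3 UMIs, taken as the limit that a count of 0 allows, would give 0.564 CPM in the Tom+ and 0.0927 CPM in the Tom- library. The remaining receptor, Notch4, was at 2.88 CPM (147 UMIs) in the Tom+ and 3.78 CPM (219 UMIs) in the Tom- stromal cells.

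Hes1, a repressor that Notch induces in many tissues, was somewhat lower in Tom+ than in Tom- stromal cells, by less than the threshold. Hes1 (ENSMUSG00000022528, chromosome 16 from 30064384 to 30067796) measured 112 CPM (109 to 115, 5725 UMIs) in the Tom+ and 133 CPM (130 to 136, 7718 UMIs) in the Tom- stromal cells. The log2 ratio of -0.25 (-0.30 to -0.20) was at percentile 12.8 and did not pass the threshold of 0.35. It was -0.23 without shared barcodes and -0.16 without immune-rich cells. In mesothelial cells the order was the other way round, with 79.1 CPM (71.7 to 87.0, 421 UMIs) in the Tom+ and 64.4 CPM (61.7 to 67.3, 2085 UMIs) in the Tom- library, or on the log2 scale 0.30 (0.14 to 0.45). This ratio was 0.14 without shared barcodes and 0.33 without immune-rich cells. Mesothelial cells were below stromal cells by 0.50 (0.36 to 0.65) on the log2 scale in Tom+ and by 1.05 (0.98 to 1.12) in Tom-. These ratios were -0.75 and -1.12 without shared barcodes and -0.58 and -1.08 without immune-rich cells. A Hes1 UMI was found in 28.8% (27.2 to 30.4) of the Tom+ and 30.7% (29.4 to 32.1) of the Tom- stromal cells after thinning and in 24.0% and 19.0% of mesothelial cells. Unthinned, the shares were 46.3%, 45%, 42.8% and 35.4%.

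Hes1 is also an early-response gene, and genes that respond to tissue dissociation are given beside it. Of 12 such genes, 0 were higher and 3 were lower in Tom+ stromal cells past the threshold (Junb, Hspa1a and Nr4a1), where 8.16% of all genes were lower. Their median log2 ratio was -0.22, and 1 of the 12, Egr1, lay above 0 (4229 against 4151 CPM). They summed to 2.69% of the Tom+ and 3.19% of the Tom- stromal UMIs. Their part in the Hes1 difference was not tested.

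Heyl, a bHLH repressor of the Hey family and a known target of Notch3 in mural cells, was lower in Tom+ than in Tom- stromal cells, opposite to Notch3. Heyl (ENSMUSG00000032744, chromosome 4 from 123233556 to 123249875) measured 5.32 CPM (4.71 to 5.99, 272 UMIs) in the Tom+ and 10.1 CPM (9.32 to 11.0, 586 UMIs) in the Tom- stromal cells. The log2 ratio of -0.93 (-1.14 to -0.72) was at percentile 1.20 of the 9778 genes. It was -1.14 without shared barcodes and -0.82 without immune-rich cells. A Heyl UMI was found in 2.19% (1.71 to 2.77) of the Tom+ and 4.22% (3.66 to 4.85) of the Tom- stromal cells after thinning (5.15% and 8.12% unthinned). In mesothelial cells Heyl measured 1.5 CPM (0.649 to 2.96, 8 UMIs) in the Tom+ library, and those 8 UMIs came from 1 cell, while in Tom- it was at 0.773 CPM (0.5 to 1.14, 25 UMIs in 20 cells). Mesothelial cells were below stromal cells in Heyl by 3.71 (3.14 to 4.35) on the log2 scale in the Tom- library, with ratios of -3.73 without immune-rich cells and -3.69 without shared barcodes.

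Hey1, the remaining target and a paralogue of Heyl, stayed under the filter of 5 CPM in each comparison. Hey1 (ENSMUSG00000040289, chromosome 3 from 8663359 to 8667256) measured 2.29 CPM (1.89 to 2.74, 117 UMIs) in the Tom+ and 1.47 CPM (1.17 to 1.82, 85 UMIs) in the Tom- stromal cells. In mesothelial cells it measured 0.939 CPM (0.305 to 2.19, 5 UMIs) in the Tom+ and 1.39 CPM (1.01 to 1.86, 45 UMIs) in the Tom- library, and in each library the interval overlapped that of stromal cells. A single Tom+ stromal cell held 29 of the 117 UMIs, and the log2 ratio of Tom+ over Tom- fell from 0.64 (0.23 to 1.06) to 0.18 with stromal bins weighted equally. It was 0.40 without shared barcodes and 0.71 without immune-rich cells. A Hey1 UMI was found in 0.732% of the Tom+ and 0.506% of the Tom- stromal cells after thinning (1.62% and 1.0% unthinned).

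The counts of members past the thresholds rest on at most 6 members each and are set beside the shares of all genes. In stromal cells 2 of the 6 members that passed the filter were higher in Tom+ (Notch3 and Jag1) and 1 was lower (Heyl), where 14.8% of all genes that passed were higher and 8.16% lower by at least 0.35. The members' median log2 ratio was 0.03 and that of all genes 0.07. In mesothelial cells 3 members passed the filter (Notch2, Jag1 and Hes1), and 0 were higher and 0 lower, where 7.34% of the genes were higher and 4.27% lower. Between classes 0 of 5 members were higher and 3 lower by at least 1 in the Tom+ library, where 13.1% of the genes were higher and 10.1% lower. In the Tom- library 0 of 6 were higher and 5 lower, where 11.9% of the genes were higher and 9.23% lower. Notch1, Notch3 and, in the Tom- library, Heyl passed the filter between classes through their stromal level alone, so they could only be lower and these counts support nothing by themselves. The median log2 ratio of all genes between classes was 0.11 in Tom+ and 0.14 in Tom-, so that relative to all genes each mesothelial ratio is lower by that amount.

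**Figure D2:**
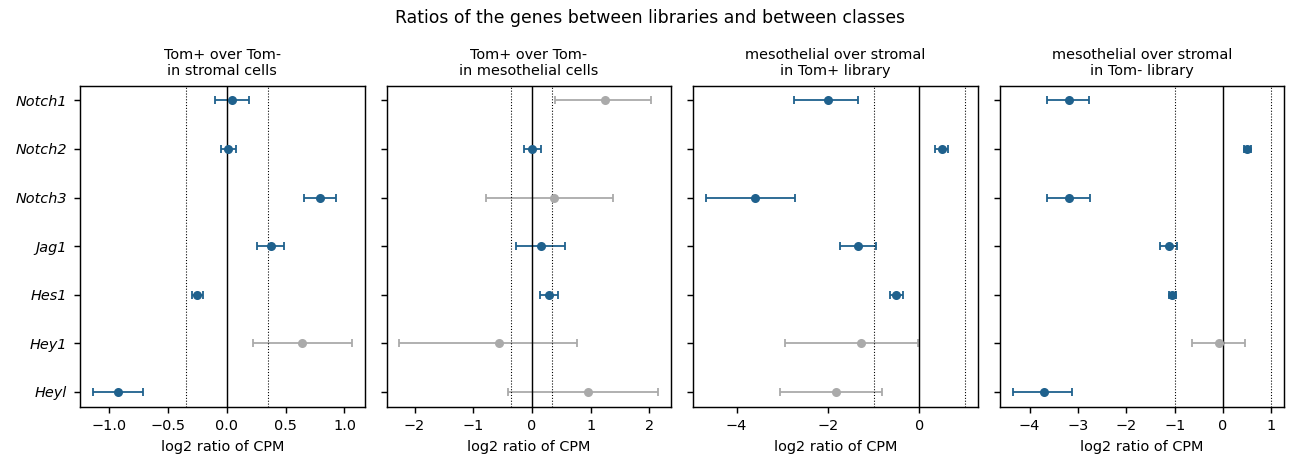
log2 ratios of CPM (x axis) of the 7 genes in 4 comparisons, with exact conditional 95% intervals for counting error. Dotted lines mark the threshold (0.35 between libraries, 1 between classes), and grey points are genes under the filter of 5 CPM. In stromal cells Notch3 (0.79) and Jag1 (0.37) lie right of the threshold and Heyl (-0.93) left of it.

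Of the other genes of the pathway, a few were higher in Tom+ stromal cells. Of 45 further genes of the pathway, 31 passed the filter in stromal cells, and 9 were higher and 0 lower in Tom+ by at least 0.35, where 14.8% of all genes were higher and 8.16% lower. Their median log2 ratio was 0.14 against 0.07 over all genes. With size factors 3 of the 31 (Dtx4, Fbxw7 and Maml3) were higher, so the other 6 calls rest on the scaling. The shares of all genes given here are those without size factors. Of the 9 genes of the nuclear complex, 4 were higher before that change of scaling. These were Fbxw7, which marks the cleaved receptor for degradation, Maml3 and Maml1, which are Mastermind coactivators, and Rbpj, the DNA-binding partner of the cleaved receptor. Rbpj was at 111 CPM in the Tom+ and 86.6 CPM in the Tom- stromal cells, or on the log2 scale 0.36 (0.31 to 0.42). The largest ratios were those of the ubiquitin ligase gene Dtx4 (41.3 against 25.7 CPM, 0.69), Fbxw7 (20.5 against 14.4 CPM, 0.51) and Maml3 (33.1 against 24.3 CPM, 0.44). Among proteases 1 of 9 was higher, the ADAM gene Adam17, of 6 trafficking genes 2 were, Mib1 and Itch, and of 4 glycosylation genes 1 was, Lfng.

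In mesothelial cells 2 of 30 pathway genes were higher and 0 lower in Tom+, where 7.34% of all genes were higher, and 0 were higher with size factors. They were Maml1 (24.1 against 18.5 CPM, log2 ratio 0.38, 0.09 to 0.66) and Dtx4 (13.3 against 10.3 CPM, 0.37, -0.02 to 0.75). Between classes 1 of 31 was higher in mesothelial cells in each library, where 13.1% of all genes were higher in Tom+ and 11.9% in Tom-, and 0 with size factors. It was Dtx2, at 33.1 CPM in the Tom+ and 30.4 CPM in the Tom- mesothelial cells against 16.0 and 14.5 CPM in stromal cells. Maml3 and Dtx4 were lower in mesothelial cells in both libraries, where 10.1% of all genes were lower in Tom+ and 9.23% in Tom-. Maml3 was at 3.38 and 3.43 CPM in mesothelial cells. It passed the filter between classes through its stromal level alone (33.1 CPM in Tom+ and 24.3 CPM in Tom-). It could thus only be lower, and its call supports nothing by itself. With size factors 3 genes were lower in each library, Numbl besides Maml3 and Dtx4. The shares of all genes in this paragraph are those without size factors. Among the further target genes, Hes5 had 0 UMIs in all 4 groups, where 3 UMIs would give 0.0587 CPM in the Tom+ and 0.0518 CPM in the Tom- stromal cells. Nrarp, a feedback inhibitor that Notch induces, had 27 UMIs (0.528 CPM, 0.348 to 0.769) in Tom+ and 4 UMIs (0.0691 CPM, 0.0188 to 0.177) in Tom- stromal cells. In mesothelial cells Nrarp was higher in both libraries, at 1.315 CPM (0.5287 to 2.71, 7 UMIs) in Tom+ and 1.267 CPM (0.9093 to 1.719, 41 UMIs) in Tom-. The intervals of the classes overlapped in Tom+ and not in Tom-.

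The 7 genes were not spread evenly over stromal cells. Stromal cells were placed in 12 bins by the summed UMIs of 12 sets of leading genes, with a cell joining the bin of its highest score if that was at least 1 SD above the mean. A bin is a range of a score and not a cell type, and 586 of the stromal cells had their highest score within 0.1 SD of the limit. Notch2 and Jag1 were high in the Pi16 and Dpp4 bin, a signature of interstitial progenitors. There Notch2 was at 126 CPM in the Tom+ and 112 CPM in the Tom- cells, its highest level of the 12 bins in both libraries, and Jag1 was at 39.4 and 39.9 CPM. Notch3 and Heyl were all but absent from this bin, with 1 and 2 Notch3 UMIs in 141 Tom+ and 306 Tom- cells and 0 and 2 Heyl UMIs. Notch1 was lowest there too, at 3.00 CPM in the Tom+ and 1.56 CPM in the Tom- cells. The bin of Smpd3, Chst1 and Pcsk6 was the next highest in Notch2 in both libraries (87.4 and 90.9 CPM) and held 39.8 and 38.5 CPM of Jag1.

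Notch3 and Heyl were instead high in the bin of Cd36, Meox2 and Aspn. Hes1 was high there too, but it was not low in the Pi16 and Dpp4 bin. In that bin Hes1 was at 143 CPM in the Tom+ and 170 CPM in the Tom- cells, against medians of 109 and 140 CPM over the 12 bins. The Cd36, Meox2 and Aspn bin held 10.8% of the Tom+ stromal cells and 11.95% of all their UMIs. It held 34.0% of their Notch3 UMIs, 32.0% of their Heyl UMIs and 19.2% of their Hes1 UMIs. In the Tom- library it held 6.06% of the stromal cells and 7.08% of all their UMIs. There it held 13.4% of the Notch3, 13.7% of the Heyl and 10.2% of the Hes1 UMIs. Notch3 was at 65.0 CPM (58.8 to 71.7) in the Tom+ and 24.9 CPM (20.3 to 30.2) in the Tom- cells of the bin, and in the Tom- library the bin of Ptgds, Pi15, Eln and Pdlim3 was as high (25.2 CPM). Heyl was at 14.2 CPM (11.4 to 17.6) and 19.5 CPM (15.5 to 24.3) in the Cd36, Meox2 and Aspn bin. In the Tom- library its levels in the Cfd, Vtn and Vdr bins were close to that (19.0, 17.5 and 15.8 CPM). Hes1 reached its highest level of the 12 bins in the Cd36, Meox2 and Aspn bin in both libraries, at 180 and 191 CPM. Notch1 was highest in the bin of Vtn, Cxcl14 and G0s2, at 29.0 and 25.8 CPM. In the Tom+ library the Cd36, Meox2 and Aspn bin was as high in Notch1 (28.2 CPM, 24.1 to 32.7) and held 23.6% of its UMIs. A wide gap in Heyl lay in the bin of Cfd, Car3 and Itm2a, with 2.46 CPM (0.991 to 5.08) in the Tom+ and 19.0 CPM (14.2 to 25.0) in the Tom- cells.

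Counting the cells in no bin as 1 more group, the libraries could be compared in 13 groups of at least 30 cells each. Heyl was lower in Tom+ in 11 of 13, by at least 0.35 in 10. Both counts include the Pi16 and Dpp4 bin, where 0 against 2 Heyl UMIs are too few for a ratio. Notch3 was higher in 10 of 13, by at least 0.35 in 7, and Jag1 was higher in 12 of 13, by at least 0.35 in 4. Hes1 was lower in 10 of 13, by at least 0.35 in 6, and higher by at least 0.35 in 1. Notch2 was lower in 7 of 13, by at least 0.35 in 0, and higher by at least 0.35 in 1. Notch1, level between the sorts when pooled, was higher in 11 of 13, by at least 0.35 in 6. In the other 2 it was lower by at least 0.35, the Smpd3, Chst1 and Pcsk6 bin (3.69 against 13.1 CPM) and the cells in no bin (12.7 against 16.9 CPM). Bins share their library, so these counts are not replicates. With each bin weighted equally the log2 ratio of Tom+ over Tom- was 0.61 for Notch3, 0.36 for Jag1 and -0.87 for Heyl.

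**Figure D3:**
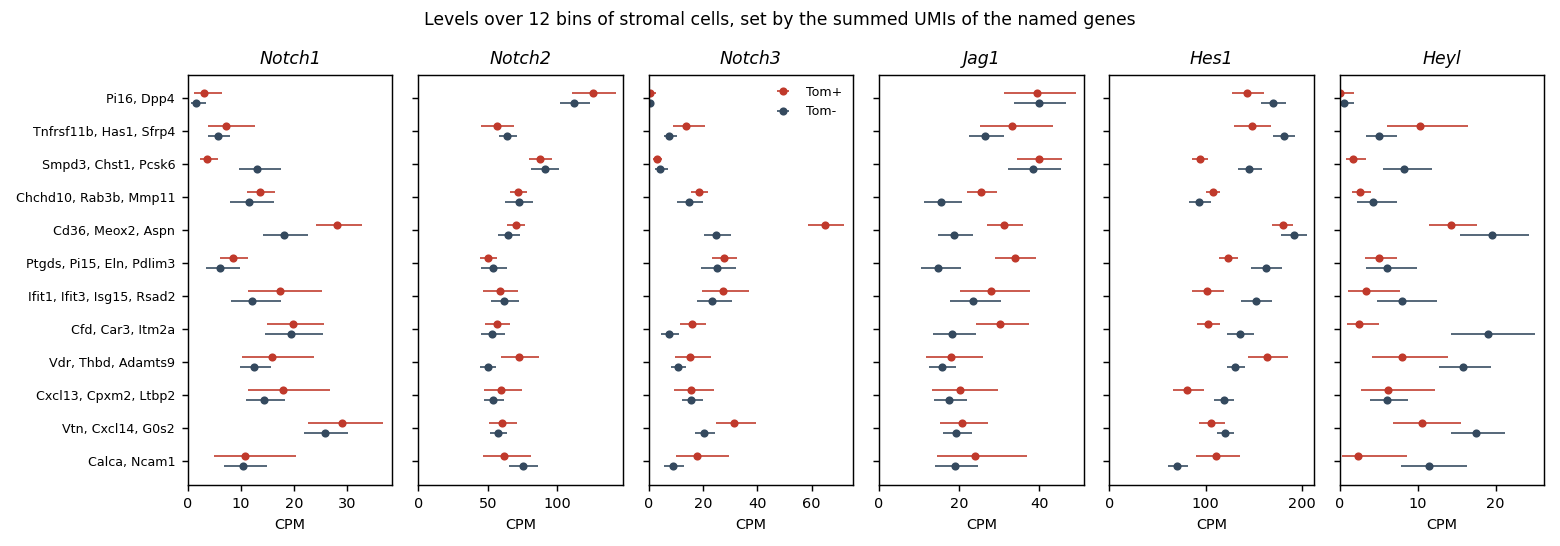
CPM (x axis, linear) of 6 genes in 12 bins of stromal cells named by their leading genes, with exact Poisson 95% intervals. Tom+ cells are red and Tom- cells blue. Notch2 peaks in the Pi16 and Dpp4 bin (126 and 112 CPM), where Notch3 and Heyl are near 0, and Notch3 peaks in the Tom+ cells of the Cd36, Meox2 and Aspn bin (65.0 CPM).

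The genes most like each member over these 26 points (13 groups in 2 libraries, sharing library, depth and the bin genes) were sought among 5774 genes by Pearson's r of the log2 levels. This is a description with no test. For Notch3 they were Olfm2 (0.93), Fbln7 (0.90) and Auts2 (0.86). For Heyl they were Steap4 (0.85), Tspan31 (0.82) and Col15a1 (0.82), and for Notch1 Lpl (0.85), Mmp19 (0.84) and Plxnd1 (0.83). Notch2 was nearest to Aes (0.87), Igbp1 (0.85) and Daglb (0.85), and Jag1 to Kctd9 (0.88), Arf3 (0.87) and Uqcc2 (0.87). For Hes1 no gene exceeded 0.71 (Arpc1b) and for Hey1 none exceeded 0.67 (Fam114a1). Between members, r was 0.75 for Notch1 and Notch3, 0.58 for Notch3 and Heyl and 0.69 for Notch1 and Heyl. It was -0.74 for Notch2 and Notch3 and 0.58 for Notch2 and Jag1. For Hes1 it was -0.06 with Notch3 and 0.13 with Heyl.

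Within single cells, Notch3 was found together with the Hey genes. Among thinned Tom+ stromal cells 15 of 267 with a Notch3 UMI also held a Heyl UMI (5.62%, 3.18 to 9.10), as did 54 of 2877 without one (1.88%, 1.41 to 2.44). In the Tom- library these shares were 8.40% (5.28 to 12.6, 21 of 250 cells) and 3.98% (3.42 to 4.61). Hey1 was found in 4.12% (2.07 to 7.25, 11 cells) of Tom+ cells with and 0.417% (0.216 to 0.728) without a Notch3 UMI, and in 2.0% (5 cells) and 0.419% of Tom- cells. The intervals with and without Notch3 did not overlap for Heyl in either library, and for Hey1 they did not overlap in Tom+ and overlapped narrowly in Tom-. Hes1 was found in 42.0% (36.0 to 48.1) of Tom+ cells with and 27.6% (25.9 to 29.2) without a Notch3 UMI, but in 32.4% and 30.6% of Tom- cells, where the intervals overlapped. The link with Heyl was not particular to Notch3. Cells with a Notch1 UMI held Heyl in 8.64% (4.81 to 14.1) against 1.84% (1.39 to 2.39) without in Tom+, and in 6.84% (4.11 to 10.6) against 4.06% (3.49 to 4.70) in Tom-, where the intervals overlapped. Cells with a Notch2 UMI held Heyl in the Tom+ library in 2.0% (1.17 to 3.19) against 2.27% (1.70 to 2.96) without. In the Tom- library the shares were 5.14% (3.96 to 6.54) and 3.89% (3.26 to 4.60), with overlapping intervals.

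Cells with a Notch3 UMI held the progenitor marker Pdgfra about as often as other stromal cells, and the mural marker Myh11 more often. Pdgfra was found in 77.9% (72.4 to 82.7) of Tom+ and 67.6% (61.4 to 73.4) of Tom- cells with a Notch3 UMI, against 75.9% and 68.8% without. Rgs5 was found in 3 Tom+ cells (1.12%) and 2 Tom- cells (0.8%) with a Notch3 UMI, against 0.104% and 0.163% without. Cox4i2 was found in 1.12% and 1.60% with Notch3 against 0.695% and 0.442% without, and Abcc9 in 1.5% and 2.0% against 2.33% and 1.14%. For Rgs5, Cox4i2 and Abcc9 the intervals with and without Notch3 overlapped in both libraries. Aspn was found in 27.7% of Tom+ and 17.2% of Tom- cells with Notch3, against 11.8% and 9.84% without, and Myh11 in 20.2% and 16.0% against 12.8% and 7.19%. The progenitor gene Pi16 was found less often, in 5.24% and 11.6% with Notch3 against 19.9% and 26.3% without.

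Once thinned, most stromal cells showed no UMI of these receptors. With 5000 UMIs per cell, 0 of the receptors Notch1, Notch2 and Notch3 were detected in 63.7% of Tom+ and 65.1% of Tom- stromal cells, exactly 1 in 32.3% and 32.0%, and all 3 in 9 and 4 cells. In mesothelial cells 36.4% of Tom+ and 38.8% of Tom- cells showed exactly 1 receptor, and 1.60% and 0.269% showed 2. Cells without a receptor UMI cannot be called receptor-negative at this depth. Unthinned, Notch2 alone was found in 56.0% of Tom+ and 47.8% of Tom- stromal cells.

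**Figure D4:**
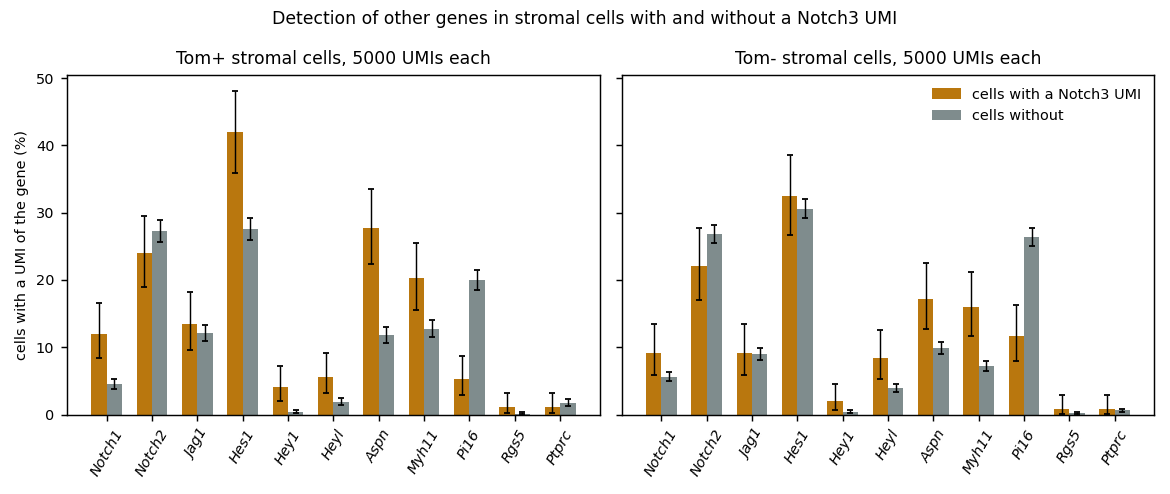
Share of stromal cells (y axis, percent, linear from 0), each thinned to 5000 UMIs, with a UMI of the named gene, among cells with and without a Notch3 UMI, in the Tom+ (left) and Tom- (right) library, with exact Clopper-Pearson 95% intervals. Heyl and Hey1 are found more often beside Notch3 in both libraries (Heyl 5.62% against 1.88% in Tom+), Pi16 less often. The mural marker Myh11 is found in 20.2% with against 12.8% without Notch3 in Tom+, and in 16.0% against 7.19% in Tom-. The mural marker Rgs5 is at most 1.12% in either kind of cell.

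Within the Tom+ library, cells can also be split by the reporter RNA itself, which shares 1 preparation. After thinning, a tdTomato UMI was found in 550 of 3144 Tom+ stromal cells. Cells without one are not reporter-negative, since a UMI can be missed at this depth. Cells with one are not all reporter-positive either, since 274 of 4547 thinned Tom- stromal cells (6.03%) also held a tdTomato UMI. At least 3 were held by 265 of the 550 Tom+ cells and by 3 of the 274 Tom- cells. Jag1 was at 21.1 CPM (16.0 to 27.3, 58 UMIs) in cells with and 30.5 CPM (27.5 to 33.6, 395 UMIs) in cells without a tdTomato UMI, or on the log2 scale -0.53 (-0.95 to -0.13). Hes1 was at 88.7 CPM (77.9 to 101) with and 121 CPM (115 to 127) without, or on the log2 scale -0.45 (-0.65 to -0.25). Notch3 was at 18.5 CPM (13.8 to 24.4) with and 22.6 CPM (20.1 to 25.3) without (-0.28, -0.74 to 0.15), and Heyl at 5.09 CPM in both (14 and 66 UMIs). Thus Notch3 and Jag1, higher in the Tom+ than in the Tom- library, were not higher in those Tom+ cells in which the reporter RNA was seen. Hes1 was lower in both contrasts.

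In Tom+ mesothelial cells a tdTomato UMI was found in 166 of 250 cells. Notch2 was at 92.8 CPM (73.2 to 116) in cells with and 95.2 CPM (68.0 to 130) without, or on the log2 scale -0.04 (-0.61 to 0.55). Hes1 was at 62.6 CPM (46.8 to 82.2) and 90.5 CPM (64.0 to 124), or on the log2 scale -0.53 (-1.16 to 0.11), and Jag1 had 10 and 6 UMIs. For Notch1, Notch3, Hey1 and Heyl 0 to 3 UMIs per group were counted, so no difference was detectable at this depth.

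**Figure D5:**
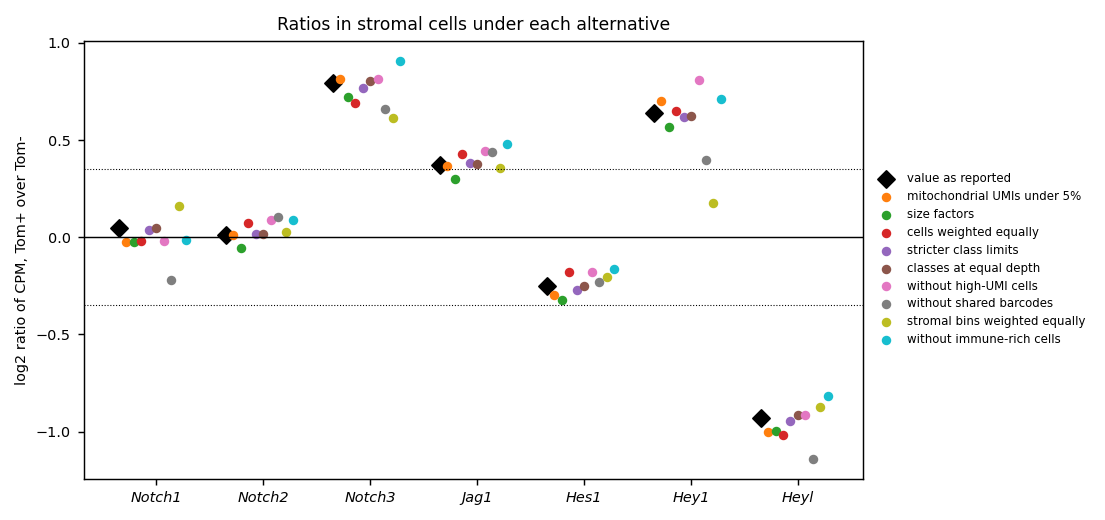
log2 ratios of Tom+ over Tom- in stromal cells (y axis) for the 7 genes as reported (diamonds) and under 9 alternatives (circles). Dotted lines mark 0.35 on either side. Notch3 stays between 0.61 and 0.91 and Heyl between -1.14 and -0.82, Jag1 drops to 0.30 with size factors, and Notch1 changes sign. The alternative without cells of other types is not drawn, since it left 90 Tom+ cells.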

How the data were processed

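Per the submitters' processing notes, the authors processed the reads with Cell Ranger 3.0.2 against mm10, and the authors deposited whole-number UMI counts, not normalized, in 1 table per library (61119807 UMIs in Tom+ and 96872394 in Tom-). Kept barcodes had over 1000 and under 7000 genes and mitochondrial counts under 8%, the study's own thresholds. No doublet caller was run, and cells above percentile 95 of UMIs were left out in an alternative. A 3′ kit counts the 3′ ends of transcripts, so levels were compared across groups within a gene and not between genes. A member was called past the threshold at an absolute log2 ratio of 0.35 between libraries, a size the study used in part of its work together with a significance limit, or 1 between classes, among genes whose mean reached 5 CPM. Of the other pathway genes, those past the threshold were named, at most 3 in each direction, and further ones after their values were seen. Shares used cells thinned to 5000 UMIs (seed 0), leaving out 119 Tom+ and 253 Tom- stromal and 0 and 31 mesothelial cells. Sets of leading genes, members and lists were chosen with earlier results of these data known. Coordinates are those of GENCODE M21 on GRCm38, and promoter windows are from RefSeq. The ratios were recomputed under 10 alternatives, of which 9 were planned. The ratio and its interval were tested on simulated data. Python 3.11.15, numpy 2.4.6, scipy 1.17.1, pandas 2.3.3 and matplotlib 3.10.9 were used.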

Additional observations from a re-analysis of the deposited data

Results flagged for a closer look

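Signal of the 7 genes was also present in barcodes that no comparison used. In barcodes that failed quality control their summed level was 204 CPM (191 to 218) over 2042 Tom+ and 202 CPM (192 to 214) over 5121 Tom- barcodes, where 3 UMIs would give 0.647 and 0.465 CPM. In the same libraries the summed level was 249 and 258 CPM in kept stromal cells and 190 and 171 CPM in kept mesothelial cells. Cells between the classes, with 5 to 9 UMIs of the mesothelial genes, showed 588 CPM (402 to 830, 32 UMIs) over 11 Tom+ cells and 192 CPM (135 to 267, 36 UMIs) over 30 Tom- cells.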

How the results depend on the processing

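Of 242 log2 ratios recomputed under the alternatives, 207 stayed within the counting interval of the reported value, 34 moved outside it and 1 reversed a call. With size factors 1 member (Notch3) and not 2 was higher in Tom+ stromal cells. Of the other pathway genes, 3 and not 9 were then higher. Without cells of other types 1 was higher and 2 were lower, and Notch3 was at -2.46 (-7.77 to 0.04), from 1 UMI in the 90 Tom+ cells that were left. That alternative left 1 Tom+ mesothelial cell and gave no value there. With mitochondrial UMIs under 5%, 1 member (Hes1, 0.36) was higher in Tom+ mesothelial cells. In the other alternatives run the counts of members past the thresholds did not change. With no filter on mean CPM, 4226 genes were higher and 2959 lower in Tom+ stromal cells, 3349 and 1820 in Tom+ mesothelial cells, and between classes 4127 and 2040 in Tom+ and 3224 and 2798 in Tom- were higher and lower in mesothelial cells, against 1443, 798, 735, 428, 1340, 1034, 1190 and 924 with it. The counts of members and pathway genes under the alternatives are given without the shares of all genes under the same settings. The counts with no filter are given without the number of genes they were drawn from. Neither kind of count can therefore be read against a background. The causes were not tested. The alternative without immune-rich cells was chosen after seeing the data. No paired analysis was possible because each condition had 1 library. Genes under 5 CPM (Hey1 throughout, and Notch1, Notch3 and Heyl in mesothelial cells) were limited by depth.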
